A study of Arabidopsis thaliana with 6 samples.

Results

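UBC28 (AT1G64230), UBC29 (AT2G16740) and UBC30 (AT5G56150) are members of the UBC8 clade of ubiquitin-conjugating enzymes of Arabidopsis thaliana, and they were measured here in phloem exudate and in dissected phloem tissue. The clade was taken as 7 genes named by locus, and a gene counted as measured where a probe set of the array mapped to it alone. This held for 3 of the 7, among 13356 genes of the array with a probe set of their own. UBC8 (AT5G41700), UBC9 (AT4G27960), UBC10 (AT5G53300) and UBC11 (AT3G08690) had none in the probe table used and were left out. The clade was selected on the UBC29 signals of these same arrays, which were already known to be far lower in exudate than in tissue, so the differences of its members between both kinds of sample are given as a description, without a test.

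Ubiquitin is a small protein that is attached to other proteins, often to mark them for breakdown by the proteasome. An activating enzyme (E1) passes it to a conjugating enzyme (E2), which carries it as a thioester on a cysteine, and a ligase (E3) brings the loaded E2 to the target protein. The enzymes of the UBC8 clade are E2s of the type known in yeast as Ubc4 and Ubc5, and in Arabidopsis they work with many RING and U-box E3 ligases. In phloem, mature sieve elements lack a nucleus and are supplied with proteins and RNAs by the companion cells beside them.

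The study used 3 Affymetrix ATH1 arrays of exudate and 3 of tissue, each hybridised with amplified poly-A RNA of flowering plants grown in short days of 8 h light. The exudate was the fluid that leaked from cut phloem into EDTA, a chelator of calcium that keeps sieve tubes open, and its RNA went through repeated linear amplification with the Two-Cycle kit. The tissue was phloem cut out by laser and catapulted from sections (LMPC), and its RNA was amplified with the BD-SMART kit, which includes a PCR step. The sources used here give no ecotype, plant age or pooling. They also do not say that replicates came from separate plants, so every spread and p-value below is that between arrays. Kit and sample type changed together, and their parts in any difference cannot be told apart. In such bulk samples fewer cells of a type and less RNA per cell also cannot be told apart.

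All values are linear MAS5 signals, the brightness that the array software assigns to a probe set. The mean signal after trimming 2% of probe sets at each end lay between 17.4 and 27.1 on the exudate arrays and between 22.3 and 28.0 on the LMPC arrays, and the number of arrays limits the precision. Few defining markers could check the tissue label. Of 21 phloem markers 4 had a probe set of their own and 3 were tested (limma, adjusted p under 0.05). CLE41 and SWEET11 were called lower in exudate, as were 17.5% of all tested genes, and CLE44 higher, as were 6.21%. The summed signal of the 4 was 113 to 184 in exudate against 212 to 446 in LMPC phloem. SUC2, the sucrose loader of companion cells, and the sieve element gene SEOR1 were not measured here. The 3 measured of 10 mesophyll markers (LHCB4.1, LHCB4.2 and RCA) were all called higher in exudate, as were 6.21% of all tested genes (limma, adjusted p under 0.05). Their summed signals were 924 to 1805 in exudate against 183 to 745 in LMPC phloem, but the groups overlapped for RCA (92.9 on exudate array 1 against 96.0 on LMPC array 1) and for LHCB4.1 (404 against 489 on the same arrays). The 1 measured xylem marker, GUT2, gave 16.0 to 33.5 in exudate against 64.9 to 80.6, and the 1 measured epidermis and guard cell marker, FMA, gave 0.90 to 11.6 against 10.8 to 28.9.

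UBC28 and UBC29 lay on opposite sides of the comparison. UBC28 had signals of 1252, 944 and 2078 on exudate arrays 1, 2 and 3, against 549, 431 and 311 on LMPC arrays 1, 2 and 3. Every exudate array was above every LMPC array. The means were 1425 ± 586 in exudate and 430.4 ± 119 in LMPC phloem (SD, n = 3 each, as for every mean that follows), a ratio of 3.31. On the scale of log2(signal + 16), the difference of exudate minus LMPC phloem was +1.65 (SE 0.35). Each SE of a log2 difference is that of limma, which draws a gene's variance toward that of all tested probe sets. It is thus not the spread of that gene's arrays alone. UBC28 stood 163rd from the top among the differences of the 8658 genes tested. The mesophyll markers above lay on the same side as UBC28, and their part in its value was not tested.

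UBC29 had signals of 14.3, 21.8 and 19.6 on exudate arrays 1, 2 and 3, against 1380, 978 and 1066 on LMPC arrays 1, 2 and 3. The groups were far apart, with the lowest LMPC signal many times the highest exudate signal. The means were 18.6 ± 3.86 in exudate and 1141 ± 212 in LMPC phloem, so that the LMPC mean was 61.5 times the exudate mean. The log2 difference was -5.06 (SE 0.31), the 13th lowest among the tested genes. The exudate signals were near the pseudocount of 16, which shrinks the difference on this scale, and without a pseudocount it was -5.95. Whether these signals exceed background is not known, so neither value is shown to be the closer one.

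UBC30 had signals of 67.7, 127 and 228 on exudate arrays 1, 2 and 3, against 232, 233 and 214 on LMPC arrays 1, 2 and 3. The groups overlapped, because exudate array 3 was above LMPC array 3. The means were 141 ± 81.3 in exudate and 226.6 ± 10.7 in LMPC phloem, and the log2 difference was -0.76 (SE 0.36). The exudate arrays carried nearly all of its spread, with a coefficient of variation (SD over mean) of 57.6% in exudate and 4.71% in LMPC phloem. For UBC28 the coefficient was 41.2% in exudate and 27.7% in LMPC phloem, and for UBC29 20.8% and 18.5%. The groups did not overlap for UBC28 and UBC29. For UBC29 this was given in advance, since the clade was selected on its signals, so a count over the members cannot be set against other genes. Among all 8658 tested genes the groups did not overlap for 39.2%, 9.55% with exudate higher and 29.6% with exudate lower.

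**Figure D1:**
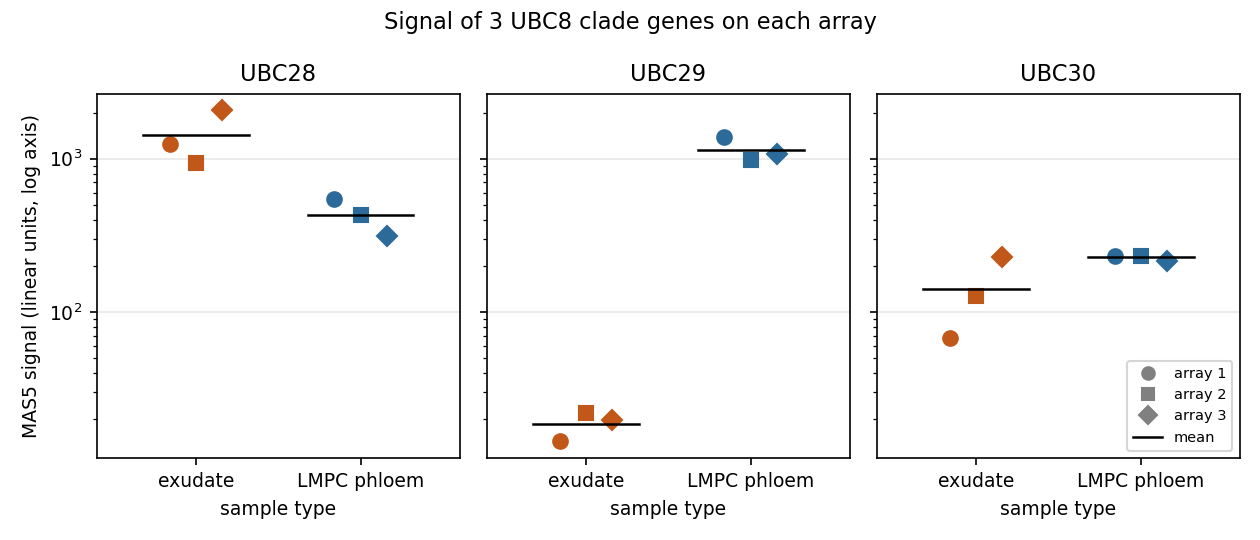
MAS5 signal (linear units on a log axis) of UBC28, UBC29 and UBC30 on each array, with exudate in orange on the left and LMPC phloem in blue on the right of each panel. Marker shapes give the array number and bars the mean of 3 arrays. UBC28 lies higher in exudate, UBC29 lies at 14.3 to 21.8 in exudate against 978 to 1380 in LMPC phloem, and UBC30 overlaps.

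The place of each gene within its own array does not depend on how arrays were scaled. UBC28 was at percentiles of 99.78 to 99.85 of the probe sets on the exudate arrays, and of 98.53 to 98.87 on the LMPC arrays. It was thus among the brightest probe sets in both kinds of sample. UBC29 was at percentiles 63.97, 74.9 and 65.71 on exudate arrays 1, 2 and 3, against 99.63, 99.53 and 99.73 on LMPC arrays 1, 2 and 3. In exudate it passed the 75th percentile on 0 of 3 arrays, a brightness at which MAS5 detection calls, not used here, would be needed to say whether it was present. UBC30 was at percentiles 92.74, 96.96 and 96.58 on exudate arrays 1, 2 and 3, and at 97.2 to 97.94 on the LMPC arrays.

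Exudate array 3 was also the brightest exudate array as a whole, with a trimmed mean of 27.1 against 18.0 and 17.4 on arrays 1 and 2. Divided by the trimmed mean of its array, the UBC28 signal was 69.5, 54.4 and 76.7 in exudate, against 19.6, 16.6 and 13.9 in LMPC phloem. The UBC28 values of the exudate arrays thus lay closer together than the raw signals, and still all above the LMPC values. UBC29 was at 0.79, 1.26 and 0.72 times the trimmed mean in exudate, against 49.3, 37.7 and 47.8 times in LMPC phloem. UBC30 was at 3.76, 7.31 and 8.43 times in exudate, against 8.30, 8.996 and 9.61 times in LMPC phloem, where exudate array 1 alone was far below the rest.

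Because both values come from the same array, the log2 ratio of a pair of genes without a pseudocount is free of the array's scale. Between exudate and LMPC phloem, the log2 ratio of UBC28 to UBC29 differed by +7.64, that of UBC28 to UBC30 by +2.54 and that of UBC29 to UBC30 by -5.09. On the log2(signal + 16) scale the values of the 3 exudate arrays and of the 3 LMPC arrays did not overlap for any of these 3 pairs. For the pairs with UBC29 this was given in advance, since the clade was selected on its signals. The pseudocount keeps this scale from being fully free of that of the array. How often other gene pairs separate in this way was not computed. The 3 genes thus differed unequally between both kinds of sample, and no choice of array scale gives all 3 the same difference.

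How far each gene stood from 0 did depend on the scale. The median log2 difference of all 15356 tested probe sets was -0.27 as deposited, 0.00 after median centring and 0.41 after scaling to the hybridization spike-in controls, transcripts added in fixed amounts before hybridization. Relative to this median, UBC28 stood at +1.92 as deposited and at +2.55 after spike-in scaling. UBC29 stood at -4.79 as deposited and at -4.38 after spike-in scaling. UBC30 stood at -0.49 as deposited and at 0.05 after spike-in scaling, and its own difference turned to 0.46 there, with scaled signals of 96.0, 316 and 262 in exudate against 123, 138 and 169 in LMPC phloem. The value of UBC30 also hung on single exudate arrays. It was -0.38 without exudate array 1, and -1.15 without exudate array 3.

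**Figure D2:**
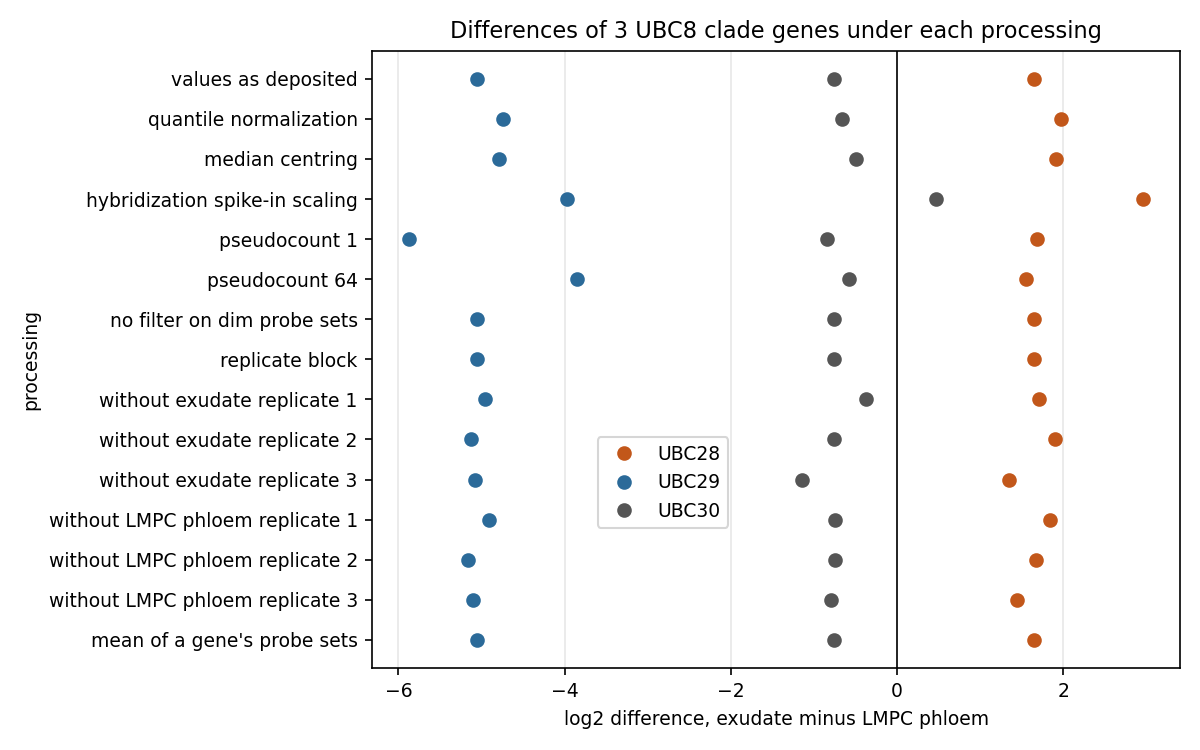
Log2 difference, exudate minus LMPC phloem, of UBC28, UBC29 and UBC30 (horizontal axis) under each processing (vertical axis), each point 1 fit. UBC28 stays between 1.34 and 2.96 and UBC29 between -5.87 and -3.85, while UBC30 crosses 0 after scaling to the spike-ins (0.46).

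The other E2 genes show what surrounds the clade. There were 35 further E2 entries, which cover the remaining conjugating enzymes and E2 variants. UBC26 had a probe set of its own but was left out, because the gene table gives that name to another locus. Of the rest, 10 had a probe set of their own and 9 were tested. Of these 9, 5 were called lower in exudate and 0 higher (limma, Benjamini-Hochberg adjusted p under 0.05). Among all tested genes, 17.5% were called lower and 6.21% higher. At an unadjusted p under 0.05, 7 of the 9 were lower and 0 higher. The share of all tested genes at that unadjusted threshold was not computed, here or for the lists below. The median log2 difference of the 9 was -0.89, against -0.32 over all tested genes. For 8 of the 9 the groups did not overlap, with exudate lower each time, as for 29.6% of all tested genes. After median centring 4 were called lower, with a median of -0.63 against -0.05 over all tested genes, and without LMPC array 2 there were 3. Of all 15356 tested probe sets, 1465 were called lower after median centring and 1870 without LMPC array 2. After spike-in scaling 0 were called lower and 1 higher, where 3.75% of all tested genes were called lower and 22.3% higher, and the median of the 9 was -0.04 against 0.35 over all tested genes. The calls thus depended on the scale of the arrays, while the median of the 9 was below that of all tested genes under each of these scalings.

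PEX4 (AT5G25760, also known as UBC21), the E2 of the peroxisome membrane, had signals of 49.0, 3.90 and 6.70 in exudate, against 163, 85.9 and 58.5 in LMPC phloem (log2 difference -1.84, limma, adjusted p = 0.00352). Exudate array 1 was well above the other exudate arrays and still below every LMPC array. UBC18 (AT5G42990) had 2, 8.20 and 20.7 in exudate, against 73.1, 93.0 and 36.7 in LMPC phloem (-1.67, limma, adjusted p = 0.00204). UBC27 (AT5G50870), an E2 with an added ubiquitin-binding domain, had 17.9, 62.5 and 48.8 in exudate, against 129, 141 and 134 in LMPC phloem (-1.44, limma, adjusted p = 0.00449). Its LMPC arrays lay close together and its exudate arrays did not, as for UBC30.

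UBC19 (AT3G20060, -1.15, limma, adjusted p = 0.013) and UBC20 (AT1G50490, -0.86, 0.0491), relatives of the animal E2 of the anaphase-promoting complex, were the other called genes. The call of UBC19 was lost without LMPC array 2, and that of UBC20 without any single one of the 6 arrays. UBC16 (-0.89, adjusted p = 0.058), UBC37 (-0.65, 0.126) and UBC32 (-0.56, 0.178), an E2 of protein breakdown at the endoplasmic reticulum, were not called by limma. UBC22 (AT5G05080) had 27.3, 51.2 and 70.8 in exudate, against 46.6, 26.3 and 53.9 in LMPC phloem, with overlapping groups and a difference of +0.15 (limma, adjusted p = 0.779). UBC31 was too dim to be tested, with means of 1.90 ± 1.35 in exudate and 3.66 ± 0.72 in LMPC phloem. As deposited, UBC28 and UBC22 were the 2 of 12 tested E2 genes, clade included, with a difference above 0, and UBC29 had the lowest. After spike-in scaling 6 of the 12 were above 0, and without exudate array 3 or without LMPC array 2 it was 1 of the 12.

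**Figure D3:**
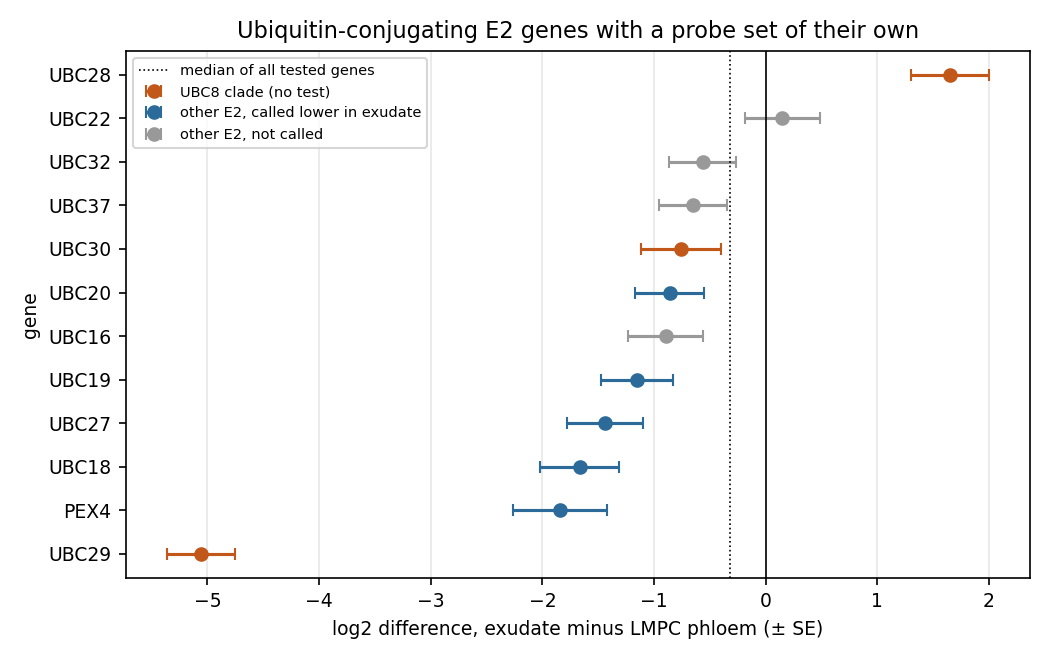
Log2 difference, exudate minus LMPC phloem, with its limma SE, of the 12 tested E2 genes, for values as deposited. Orange points are the UBC8 clade (no test), blue points are other E2 genes called lower in exudate, grey points are not called, and the dotted line is the median of all tested genes (-0.32). UBC28 lies at +1.65 and UBC29 at -5.06, with the other 10 genes between -1.84 and 0.15.

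Further steps of the ubiquitin pathway were covered thinly. None of the 14 ubiquitin genes, the 2 E1 genes or the 24 entries of the 20S proteasome, the proteolytic core, was tested here. PAB2 (AT1G79210) of the 20S list had a probe set of its own. It was left out because the gene table gives that name to another locus. Of 42 RING and U-box E3 ligases, 5 were tested, and which of these 5 work with the UBC8 clade was not examined. By limma 0 of them were called in either direction, against 23.7% of all tested genes, and 0 passed an unadjusted p under 0.05. Their median difference was +0.45, and the U-box ligases of immune signalling PUB22, PUB23 and PUB24 lay at +0.45, +0.64 and +0.65 with overlapping groups (limma, adjusted p = 0.311, 0.197 and 0.247). PUB22 was dim, at 9.30 to 16.1 in exudate and 1.95 to 11.9 in LMPC phloem. RING1 lay at -0.51 and AT5G53360 at +0.39, also with overlapping groups (limma, adjusted p = 0.293 and 0.371). After spike-in scaling 3 of the 5 ligases were called higher, where 22.3% of all tested genes were.

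Of 8 tested genes of the 19S particle, the proteasome's regulatory cap, 1 was called higher in exudate and 0 lower. Over all tested genes 6.21% were called higher and 17.5% lower. At an unadjusted p under 0.05, 0 of the 8 were lower too. The called locus was AT1G45000, with 78.5, 55.0 and 155 in exudate against 30.5, 46.9 and 29.6 in LMPC phloem (+1.04, limma, adjusted p = 0.0356). Leaving out exudate array 1 or 3 ended this call, as did leaving out LMPC array 1 or 3. RPN12a (AT1G64520), a subunit of the lid of that particle, had a difference of +0.18 and overlapping groups (limma, adjusted p = 0.74). Of the 8, 6 lay above 0 and 2 below, namely AT1G04810 (-0.60) and AT2G32730 (-0.36), neither called (limma, adjusted p = 0.164 and 0.536). The groups did not overlap for 2 with exudate higher and for 1, AT1G04810, with exudate lower. Over all tested genes this held for 9.55% and 29.6%. After spike-in scaling 5 of the 8 were called higher, beside the 22.3% of all tested genes at that scaling.

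Among enzymes for the related proteins SUMO and RUB, 3 genes were tested, with 1 called higher and 1 lower. The shares over all tested genes were 6.21% and 17.5%. SAE1A (AT4G24940), a subunit of the SUMO-activating enzyme, had 49.9, 26.2 and 33.3 in exudate against 19.1, 4.42 and 6.15 in LMPC phloem (+1.04, limma, adjusted p = 0.0261), a call lost without exudate array 1, LMPC array 2 or LMPC array 3. AT2G18600 was called lower (-1.03, limma, adjusted p = 0.0384), a call that ended when exudate array 1 or 2, or LMPC array 2 or 3, was left out. SIZ1, a SUMO ligase, was not called (-0.50, limma, adjusted p = 0.31). Of cullin-RING ligase parts, CUL4 (+0.10) and SLY1 (-0.74), the F-box protein of gibberellin signalling, were tested and not called (limma, adjusted p = 0.871 and 0.0984). Of the deubiquitinases, which remove ubiquitin, UBP15 (-0.88) and UBP16 (-0.66) were tested and not called (limma, adjusted p = 0.064 and 0.14). At an unadjusted p under 0.05 the counts were 0 higher and 1 lower of 2 for cullin-RING ligases, and 0 higher and 1 lower of 2 for deubiquitinases. Without the share of all tested genes at that threshold, these counts cannot be judged.

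The genes with the most similar pattern were found by the distance between profiles of log2(signal + 16) over the 6 arrays, each centred on its own mean, among 1132 tested genes with a symbol. The measure includes the difference between both kinds of sample, so the likeness describes these arrays and nothing further. For UBC28 they were GAPC2 (AT1G13440), a cytosolic glyceraldehyde-3-phosphate dehydrogenase of glycolysis, at a distance of 0.47 (Pearson r = 0.98 over 6 arrays), ALDH2C4 (AT3G24503), an aldehyde dehydrogenase of phenylpropanoid metabolism, at 0.48, and THE1 (AT5G54380), a receptor kinase of cell wall sensing, at 0.57. GAPC2 had signals of 750.4, 676 and 1193 in exudate, against 315, 204 and 219 in LMPC phloem. As for UBC28, exudate array 3 was highest and LMPC array 1 was the highest of its group.

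For UBC29 the nearest were MT1C (AT1G07610), a metallothionein, at 1.18, psaI, a photosystem I gene of the chloroplast genome, at 1.202, and GSTU20 (AT1G78370), a glutathione transferase, at 1.22, each with r = 0.98. These distances were larger than those of the other members. The measure grows with the size of a gene's difference, and r was also 0.98 for the nearest genes of UBC28 and UBC30. MT1C had 20.1, 1.30 and 7.50 in exudate, against 776, 991 and 634 in LMPC phloem. UBC29 was highest on LMPC array 1, and MT1C on LMPC array 2.

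For UBC30 they were ALDH6B2 (AT2G14170), a mitochondrial aldehyde dehydrogenase, at 0.28, PGY1 (AT2G27530), a protein of the large cytosolic ribosomal subunit, at 0.33, and KINESIN-13A (AT3G16630), a microtubule motor protein, at 0.40. PGY1 had 102, 172 and 281 in exudate, against 249, 288 and 299.8 in LMPC phloem. As for UBC30, exudate array 1 was lowest and exudate array 3 reached the LMPC level.

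**Figure D4:**
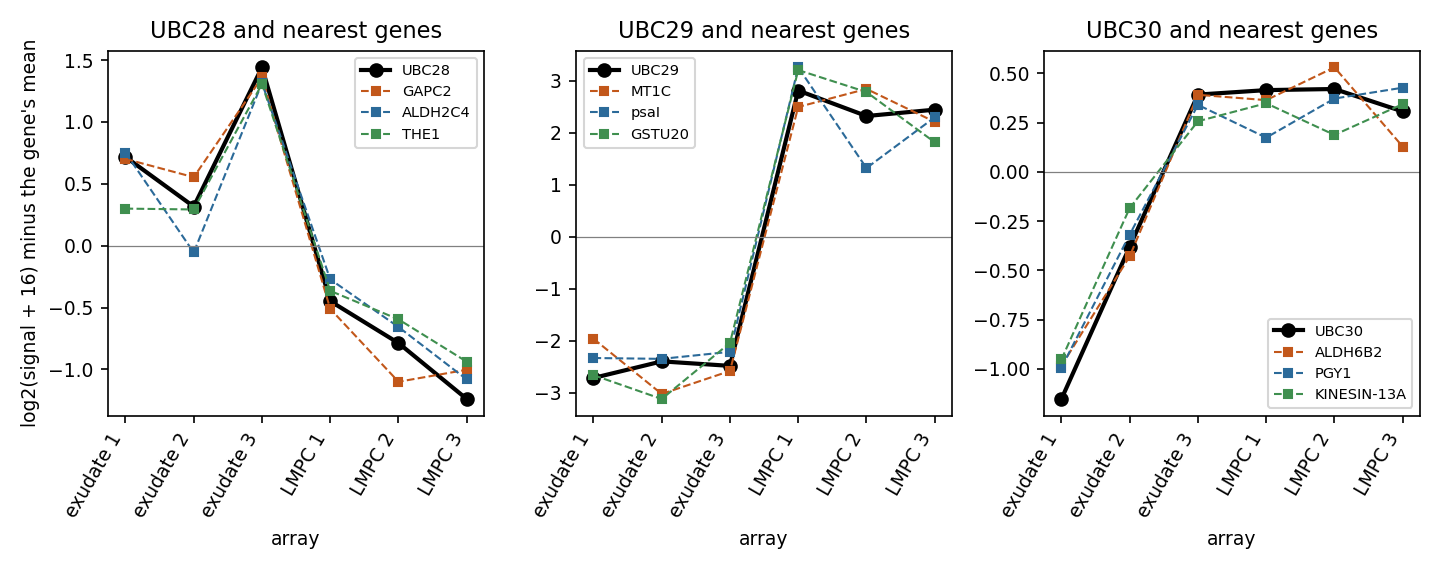
Profiles of UBC28, UBC29 and UBC30 (black) and of the 3 genes nearest to each (colours) over the 6 arrays, as log2(signal + 16) minus the gene's mean, with a vertical axis of its own in each panel. The distances are 0.28 to 0.57 for UBC28 and UBC30, and 1.18 to 1.22 for UBC29, whose difference is larger.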

How the data were processed

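The authors deposited MAS5 intensities, on a linear scale and with 1 value for each probe set, per the submitters' processing notes. A scaling target or build was not given in the sources used here. Detection calls were not used. The labels' extract protocol for the LMPC samples names exudates, against their titles, and groups follow the titles. The table held 22810 probe sets, 64 of them controls. The probe table gave 13513 probe sets 1 gene, 503 several and 8730 none, and 13436 of the 13513 matched TAIR10.1, used for names. A gene was measured by its brightest probe set of its own.

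Probe sets entered the test if they passed the 40th percentile of an array on 3 or more of 6 arrays, as all 3 clade genes did on all 6. Limma 3.58.1 in R 4.3.3 (lmFit and eBayes) was run on log2(signal + 16), with Benjamini-Hochberg adjustment over 15356 probe sets, and it was checked on simulated data. No p-value is given for clade members. Of the 194 pathway entries, 3 were left out because the gene table gives their names to another locus. The guard cell marker GC1 was left out for this reason too. The members and lists were chosen with earlier results of these data known. Named genes are the members, up to 3 called genes per list and direction with the smallest adjusted p, and the 3 nearest profiles of each member. Other list genes are named where counts were small, chosen after their values were seen. Alternatives were 3 scalings, pseudocounts of 1 and 64, no filter, a replicate block, the mean of a gene's probe sets, and leaving out each array.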

Additional observations from a re-analysis of the deposited data

How the results depend on the processing

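UBC28 kept its direction under every alternative run and lay between 1.34 and 1.90 with 1 array left out, and at 2.96 after spike-in scaling. UBC29 kept its direction too, between -5.16 and -4.91 with 1 array left out, -4.74 after quantile normalization, -4.79 after median centring, -3.97 after spike-in scaling, -5.87 with a pseudocount of 1 and -3.85 with 64. UBC30 lay between -1.15 and -0.38 with 1 array left out and reversed to 0.46 after spike-in scaling. The calls over all probe sets were 1303 higher and 2552 lower in exudate. They were 1986 higher after quantile normalization, 1961 higher and 1465 lower after median centring, 4036 higher and 532 lower after spike-in scaling, and 905 to 1214 higher and 1521 to 2469 lower with 1 array left out. Without exudate array 1 there were 1521 lower, and without LMPC array 1 there were 1671. Of the 29 tested genes of the pathway lists, 2 were called higher and 6 lower, beside 6.21% and 17.5% of all tested genes. After spike-in scaling it was 11 higher and 0 lower, beside 22.3% and 3.75%. With a pseudocount of 1 it was 0 and 2, where 951 and 1981 of all probe sets were called. With a pseudocount of 64 or no filter on dim signals it was 0 higher. Over all probe sets there were then 949 and 971 higher calls. With 1 array left out it was 0 to 2 higher and 3 to 5 lower. UBC20 turned to 0.13 after spike-in scaling. The cause of these changes was not tested.

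Same-numbered arrays of both groups had correlations of 0.00, -0.02 and -0.07 between their deviations from the group means. For differently numbered arrays these were -0.04 to 0.06. With 3 arrays per group, this cannot decide whether the shared replicate numbers pair the arrays. With the replicate number as a block there were 1213 higher and 2205 lower calls, and UBC20 was not called. The exudate signals of UBC29, at percentiles 63.97 to 74.9 of their arrays, limit how well the size of its difference is known.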
